A study of Mus musculus with 31 samples.

Results

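The cytosolic ribosomal protein genes encode the protein parts of the ribosome that translates mRNA in the cytosol. They were taken from the count table by name: symbols starting with Rpl or Rps followed by a digit, and Rplp0, Rplp1, Rplp2 and Rpsa, leaving out the S6 kinases (Rps6k), entries marked as pseudogenes (-ps) and Rps19bp1. The rule gave 87 members, 53 with large-subunit and 34 with small-subunit names, out of 24411 entries. RNA-seq libraries of Ly6C-hi monocytes of C57BL/6J mice were compared: 3 of blood monocytes of healthy mice (healthy blood), 3 of blood monocytes of mice carrying subcutaneous LLC tumors (LLC blood) and 3 of monocytes taken from LLC tumors (LLC tumor). LLC, Lewis lung carcinoma, is a transplantable mouse lung cancer cell line. The cells had been sorted as CD11b+ Ly6G- Ly6Chi MHC-II-. No genotype or agent separates the groups, and the labels give neither the age of the mice nor whether a blood and a tumor library came from the same mouse. The labels do not say that the RNA replicates came from separate mice, so p-values measure only the spread between these samples. The other 22 of the 31 samples measure chromatin and were not analysed here.

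A ribosome holds 1 copy of nearly every ribosomal protein, so cells make these proteins in step, from mRNAs that are among the most abundant in a cell. Most of these mRNAs begin with a C followed by a run of pyrimidines, the 5' terminal oligopyrimidine (TOP) motif, through which mTOR signalling and the binding protein LARP1 control their translation and stability. Monocytes are short-lived blood cells that leave the bone marrow, and those that enter a tumor can become macrophages. Counts from bulk RNA show the level of mRNA and not its translation, and fewer cells of a type cannot be told apart from less RNA per cell.

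The starts of some members with full values are shown here for the TOP motif, those with a marked pyrimidine run first and then those without a mark. RefSeq start entries (GRCm38.p6) were found for 66 of the 87 members, 78 starts in all. Each line gives 15 bases before the annotated start and 15 from the start on, 5' to 3' on the gene's strand, and capitals mark the longest run that opens with C, has at least 4 more C or T bases and begins within 5 bases of the start.
Rps27: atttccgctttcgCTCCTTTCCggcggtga
Rps27rt: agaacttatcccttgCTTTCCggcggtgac
Rps6: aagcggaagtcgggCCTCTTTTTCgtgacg
Rplp2: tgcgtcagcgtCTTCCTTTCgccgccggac
Rpl12: ggcggagcaggatccgtCTTTTCggctttc
Rps2: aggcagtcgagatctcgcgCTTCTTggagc
Rpl22l1: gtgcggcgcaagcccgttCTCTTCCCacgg
Rps28: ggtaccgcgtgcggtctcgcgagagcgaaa
Rplp0: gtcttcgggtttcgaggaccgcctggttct
Rpl4: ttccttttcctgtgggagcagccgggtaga
Rpl13: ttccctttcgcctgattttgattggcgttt
Rpl7l1: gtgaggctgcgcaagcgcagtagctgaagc

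The windows are Rps27 at chr3:90213634-90213663 (minus strand), Rps27rt at chr9:114982725-114982754 (minus strand), Rps6 at chr4:86857353-86857382 (minus strand), Rplp2 at chr7:141447636-141447665 (plus strand), Rpl12 at chr2:32961697-32961726 (plus strand), Rps2 at chr17:24720048-24720077 (plus strand), Rpl22l1 at chr3:28805493-28805522 (plus strand), Rps28 at chr17:33824548-33824577 (minus strand), Rplp0 at chr5:115559452-115559481 (plus strand), Rpl4 at chr9:64173372-64173401 (plus strand), Rpl13 at chr8:123102335-123102364 (plus strand) and Rpl7l1 at chr17:46782642-46782671 (minus strand). A run began exactly at the annotated start in 14 of the 78 member starts (17.9%), against 2.5% of all 32851 starts in the table. Within 5 bases of the start, 32 of 78 (41.0%) held one, against 18.3% of all starts. Rps28, Rplp0, Rpl4, Rpl13 and Rpl7l1 held none that began within 5 bases of the annotated start. The printed Rpl4 and Rpl13 windows do hold such runs further before the start, which were not counted. Rps27 and its retrocopy Rps27rt share 38 consecutive bases within the first 50 bases after the start, so reads of these entries can be hard to tell apart.

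Library totals ranged from 10457492 to 20706412 counts. The deposited CPM table of 10693 genes holds 0 of the 87 members, so every value below comes from the count table. Counts were whole numbers in all 9 libraries for 51 members, non-whole in all 9 for 22 and non-whole in some for 14. Estimated counts can be non-whole where reads match several entries. A filter on low counts kept 85 members among 12337 tested genes. Rpl10l and Rpl39l were not tested: Rpl10l had 0 counts in 7 of the 9 libraries, and Rpl39l had 2 to 11 counts in each. The 6 monocyte markers (Ly6c2, Ccr2, Itgam, Csf1r and Lyz2 among them) were present in all groups, with a summed level of 32278 to 36165 CPM in healthy blood, 23032 to 26348 CPM in LLC blood and 12844 to 16569 CPM in LLC tumor (CPM, counts scaled to the library's total). LLC tumor 1 stood apart from the other LLC tumor libraries: its TMM factor was 0.798 against 1.00 and 0.968, and its counts differed from theirs by a chi-square per degree of freedom of 47.6 and 37.2, while theirs differed from each other by 6.90. The members' counts of calls and medians in both LLC tumor comparisons (TMM scaling) are given with and without it. The other gene lists and the summed copies are given only with it.

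The members took a smaller share of all counts in both groups from tumor-bearing mice than in healthy blood. They held 5.79%, 6.02% and 6.16% of the counts in the healthy blood libraries, a mean of 5.99% ± 0.190 (SD, n = 3). In LLC blood they held 4.54%, 4.33% and 4.44%, with a mean of 4.44% ± 0.104 (SD, n = 3). In LLC tumor they held 4.49%, 4.56% and 4.63%, with a mean of 4.56% ± 0.0672 (SD, n = 3). Every healthy blood library lay above all 6 others, and the ranges of LLC blood and LLC tumor overlapped. Both subunits were highest in healthy blood: the large-subunit members held 3.41% ± 0.104 in healthy blood, 2.56% ± 0.0611 in LLC blood and 2.65% ± 0.0374 in LLC tumor (SD, n = 3 each). The small-subunit members held 2.58% ± 0.0867, 1.88% ± 0.0431 and 1.91% ± 0.0299 in the same order of groups. With the ribosomal RNA precursor entry Rn45s left out of the totals, the mean shares were 6.00%, 4.44% and 4.57%.

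**Figure D1:**
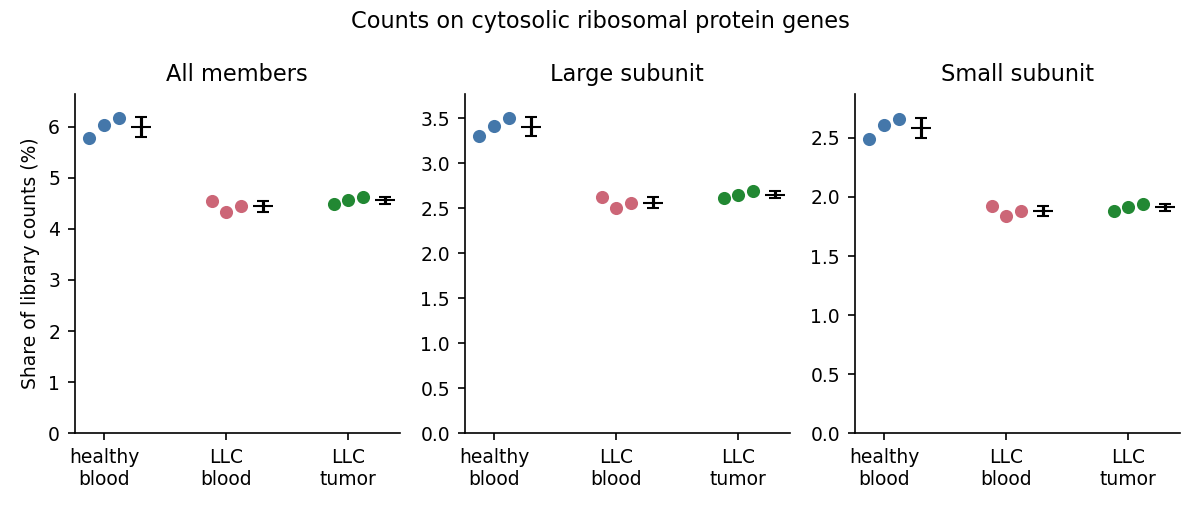
Share of each library's counts (vertical axis, %) on all members, on large-subunit members and on small-subunit members, by group. Points are libraries and bars are the mean ± SD of 3; in the panel of all members the healthy blood libraries lie between 5.79% and 6.16%, above LLC blood (4.33% to 4.54%) and LLC tumor (4.49% to 4.63%).

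Setting LLC blood against healthy blood asks how circulating monocytes differ when a mouse carries a tumor. Nearly the whole family was lower in LLC blood. In edgeR's quasi-likelihood test (Benjamini-Hochberg adjusted p under 0.05 over all 12337 tested genes), 74 of the 85 tested members fell and 0 rose. Of all tested genes, 9.61% fell and 14% rose, and among the 2330 genes whose mean reached 100 CPM, 10.5% fell and 20.6% rose. The members' median log2 fold change was -0.49, beside -0.0092 for all tested genes, and 82 members were below 0. At an unadjusted p under 0.05, 0 members rose and 75 fell, and DESeq2 and limma-voom likewise called 0 higher. Without any scaling beyond the library total, all 3 LLC blood libraries lay below all 3 healthy blood libraries for 80 of 85 members, against 23.8% of all tested genes (27.6% were higher in this sense, and 0 members). The count of falls was between 69 and 78 under every other scaling, filter and tool tried. It was 48 without LLC blood 2, 48 without LLC blood 3, and 47 at an adjusted p under 0.01.

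**Figure D2:**
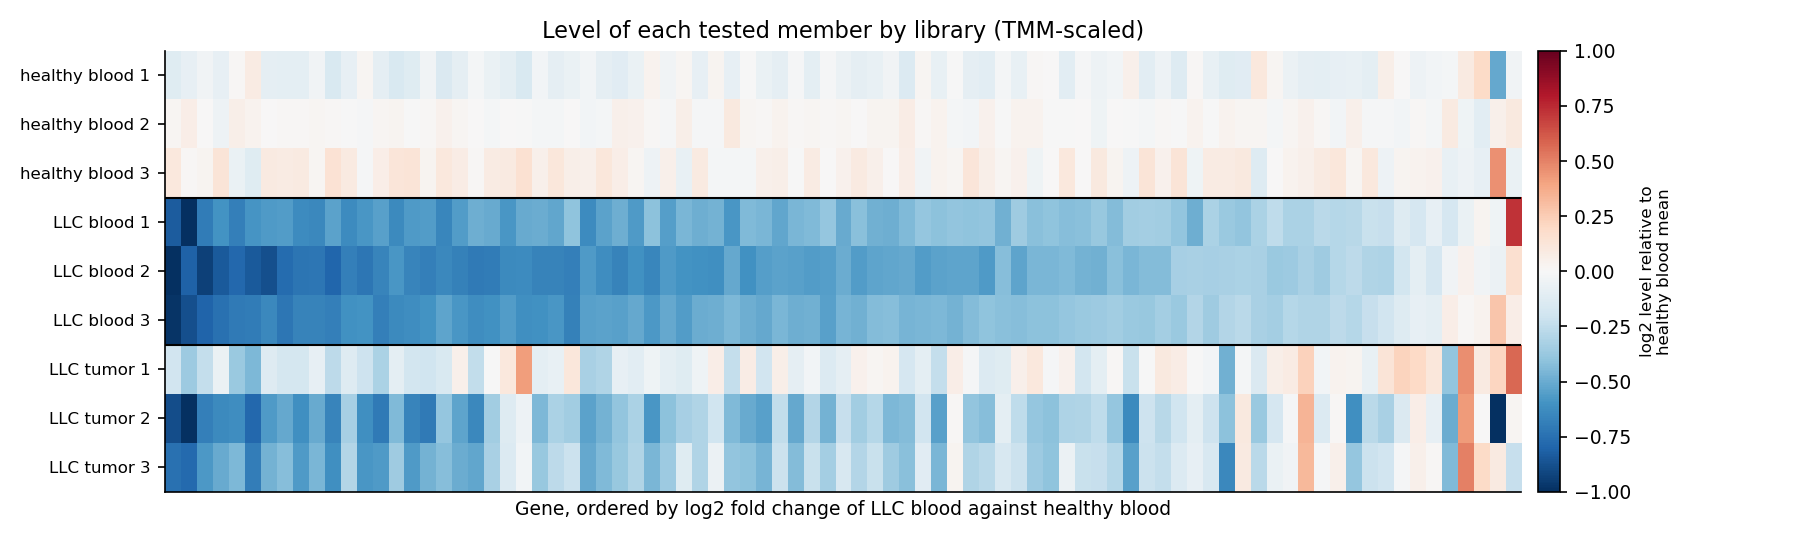
Level of each of the 85 tested members (columns, 1 per gene, ordered from left to right by the log2 fold change of LLC blood against healthy blood) in the 9 libraries (vertical axis), as the log2 of TMM-scaled CPM relative to the mean of healthy blood; colours stop at -1 and 1. The LLC blood rows are blue for nearly all members; LLC tumor 1 is paler than LLC tumor 2 and 3, a contrast that depends on the scaling, since its share of counts (4.49%) was close to theirs (4.56% and 4.63%).

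The members with the largest falls were Rps27rt, Rps27, Rpl37a, Rps14 and Rps28. Rps27, a zinc-finger protein of the small subunit, stood at 259, 288 and 276 CPM in the healthy blood libraries and 133, 161 and 149.7 CPM in LLC blood. Rps27rt, its retrocopy, stood at 478, 527 and 558 CPM and 297, 230.1 and 266 CPM. For both entries every LLC blood library lay below every healthy blood library, and edgeR's log2 fold change was -0.92 (SE 0.16, adjusted p = 0.00395) for Rps27 and -1.01 (SE 0.18, adjusted p = 0.00414) for Rps27rt. Since their reads can be shared out, the counts of both were also summed: the sum ranged from 737 to 835 CPM in healthy blood and from 392 to 430.0 CPM in LLC blood, with a log2 fold change of -0.97 (SE 0.16, edgeR adjusted p = 0.00333). Rpl37a, a zinc-binding protein of the large subunit, fell from 556, 574 and 583 CPM to 358, 308 and 329.7 CPM, a log2 fold change of -0.81 (SE 0.12, adjusted p = 0.00193) in edgeR.

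Rps14 and Rps28 both sit near the exit of the mRNA channel on the small subunit. Rps14 was at 865, 889 and 1001 CPM in healthy blood and 617, 529 and 549.7 CPM in LLC blood, a log2 fold change of -0.73 (SE 0.15, adjusted p = 0.00828) in edgeR. Rps28 was at 437, 451 and 413 CPM and 274, 259 and 267 CPM, and its log2 fold change of -0.73 had the smallest adjusted p of all members (SE 0.086, adjusted p = 0.000606). In both genes the groups did not overlap. The other members called at the mRNA exit brought the count there to 5 of 6, with Rpsa the exception. Rpsa, also known as the laminin receptor, read 1580.1, 1682 and 1823 CPM and 1472, 1417 and 1453 CPM, with no overlap between the libraries, but its log2 fold change of -0.25 (SE 0.10, adjusted p = 0.1) did not pass the test. It did pass with DESeq2, limma-voom, upper-quartile factors, library totals only, only the 6 libraries compared, and without LLC tumor 1.

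At the entry of the mRNA channel and the decoding centre 4 of 5 members fell, and the exception was Rps2. Rps2, which lines the channel entry, was at 429, 391 and 389 CPM in healthy blood and 391, 428 and 408 CPM in LLC blood, and these ranges overlapped (log2 fold change -0.0048, SE 0.078, adjusted p = 0.979 in edgeR). Rps3, which lies beside it and also acts in DNA repair, fell by 0.43 on the log2 scale (SE 0.13, edgeR adjusted p = 0.0432), a call lost when any 1 of the 6 blood libraries was left out. Rps6, the substrate of the S6 kinases downstream of mTOR, read 1197, 1269.6 and 1279 CPM in healthy blood and 1019.9, 1003 and 1035 CPM in LLC blood. Its libraries did not overlap, and it fell by 0.32 (SE 0.087, edgeR adjusted p = 0.0273), a call lost under 8 of 19 alternatives, among them each blood library left out.

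On the large subunit 43 of 51 tested members fell, and on the small subunit 31 of 34. The stalk, which recruits translation factors, differed from this: 1 of its 3 proteins passed the test. Rplp1 fell from 679, 704 and 774 CPM to 597, 608 and 604 CPM (log2 fold change -0.28, SE 0.082, adjusted p = 0.0363 in edgeR), a call lost under 9 of 19 alternatives. Rplp0, which anchors the stalk, read 1959, 1933 and 1992 CPM and 1822, 1784 and 1804 CPM, with a log2 fold change of -0.15 (SE 0.11, adjusted p = 0.379). Rplp2 read 520.0, 425 and 430.2 CPM and 473, 459.6 and 472 CPM, overlapping ranges with a log2 fold change of 0.0041 (SE 0.10, adjusted p = 0.988).

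Both proteins that bind 5S ribosomal RNA and, when free, the p53 regulator MDM2 were lower. Rpl5 fell from 969, 1030.2 and 1139 CPM to 839, 795 and 807 CPM (log2 fold change -0.39, SE 0.10, adjusted p = 0.0233 in edgeR). Rpl11 fell from 742, 757 and 745 CPM to 554, 529 and 538 CPM (-0.50, SE 0.11, adjusted p = 0.0126). Neither gene's groups overlapped, and both calls were lost without LLC blood 2 and without LLC blood 3, that of Rpl5 also without healthy blood 3. At the exit tunnel of the nascent chain 8 of 9 members fell, and the exception was Rpl4, at 1272, 1329.7 and 1349 CPM and 1188, 1270.0 and 1255 CPM (-0.12, SE 0.090, adjusted p = 0.39).

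Rpl13a, which can leave the ribosome to silence inflammatory mRNAs in the GAIT complex of activated monocytes, fell from 984, 1038 and 1111 CPM to 755, 708 and 744 CPM (-0.53, SE 0.10, adjusted p = 0.00621 in edgeR). Rpl10, which joins the large subunit late in its assembly, fell from 1812, 1850.4 and 1792 CPM to 1358, 1235 and 1304 CPM (-0.51, SE 0.15, adjusted p = 0.0356), a call lost when any 1 of the 6 blood libraries was left out. All 18 members whose human counterparts are mutated in Diamond-Blackfan anaemia, a failure of red cell production, were called lower, with a median of -0.55. In the whole family 74 of 85 were, with a median of -0.49, beside 9.61% of all tested genes. The 11 members not called were Rpl3, Rpl36al, Rpl3l, Rpl4, Rpl7a, Rpl7l1, Rplp0, Rplp2, Rps2, Rps4l and Rpsa. Ribosomal proteins that do not carry an Rpl or Rps symbol fell too, among them Fau, a fusion that yields S30, by 0.66 and Gnb2l1 (Rack1), a scaffold on the small subunit, by 0.36 on the log2 scale (edgeR adjusted p = 0.0171 and 0.0315). The Gnb2l1 call was lost when any 1 of the 6 blood libraries was left out, and the Fau call without healthy blood 1, healthy blood 3, LLC blood 2 or LLC blood 3.

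To see which members moved apart from the family, libraries were also scaled to the members themselves (TMM factors from the member genes). This sets the middle of the family near 0, so the split between directions carries no information, and only the identity of the outlying members does. On this scale 10 members were lower and 10 higher in LLC blood relative to the family (of all tested genes 2.71% lower, 54.5% higher and 57.3% either way). Of these, 3 lower and 7 higher kept the call under all 12 alternatives. The 3 lower ones were Rps27rt (-0.51, SE 0.11, adjusted p = 0.00321), Rps27 (-0.42, SE 0.11, adjusted p = 0.0111) and Rpl37a (-0.32, SE 0.066, adjusted p = 0.00265). The 7 higher ones were Rplp2 (0.49, SE 0.12, adjusted p = 0.00631), Rps2 (0.49, SE 0.10, adjusted p = 0.00327), Rpl7l1 (0.45, SE 0.10, adjusted p = 0.00426), Rpl4 (0.38, SE 0.074, adjusted p = 0.00205), Rpl3 (0.38, SE 0.064, adjusted p = 0.000982), Rplp0 (0.34, SE 0.060, adjusted p = 0.00105) and Rpsa (0.24, SE 0.065, adjusted p = 0.0113). Rpl3 lies near the peptidyl transferase centre, where peptide bonds form. The lower calls of Rps28 (-0.24, SE 0.074, adjusted p = 0.0209) and Rps14 (-0.24, SE 0.083, adjusted p = 0.0356) on this scale were lost without healthy blood 1, healthy blood 2, LLC blood 2 or LLC blood 3, and that of Rps14 also without healthy blood 3. Leaving out healthy blood 2, LLC blood 2 or LLC blood 3 left 11 of the 20 calls.

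Markers of other cells moved with this comparison. All 7 T cell markers (Cd3e, Cd3d, Cd3g, Cd4, Cd8a, Lck and Cd247) were found, with a summed level of 38.3 to 154 CPM over the healthy blood libraries and 4.63 to 9.56 CPM over the LLC blood libraries. The 7 NK cell markers summed to 188 to 469 CPM and 26.5 to 48.4 CPM, and the 5 B cell markers to 17.2 to 163 CPM and 10.4 to 13.8 CPM, with Pax5 at 0 in LLC blood. The 9 neutrophil markers went the other way, at 177 to 219 CPM against 267 to 446 CPM in LLC blood. The 5 fibroblast markers summed to 3.13 to 15.2 CPM in healthy blood and to 407, 1.38 and 1.88 CPM in LLC blood. The 6 erythroid markers overlapped, at 222 to 650 CPM and 168 to 919 CPM. Rn45s ranged from 966 to 3473 CPM in healthy blood and from 1028 to 1526 CPM in LLC blood. Their part in the lower level of the members was not tested. Without LLC blood 1, which had the highest fibroblast sum of the blood libraries, the member median was -0.49 beside -0.0086 for all tested genes, and 58 members fell. Without healthy blood 2, the library with the highest B cell sum (163 CPM), the member median was -0.54 beside -0.061, a distance of -0.47 against -0.48 with all libraries, and 66 members fell. Without healthy blood 3, the library with the highest T and NK cell sums (154 and 469 CPM), it was -0.47 beside -0.0038, and 50 members fell. Every healthy blood library had higher T, NK and B cell sums than every LLC blood library. Leaving out 1 library therefore cannot tell these markers apart from the group. From healthy blood 1 to 3 the T cell sums were 38.3, 93.2 and 154 CPM and the NK cell sums 188, 299 and 469 CPM. The members' shares of counts rose in the same order.

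**Figure D3:**
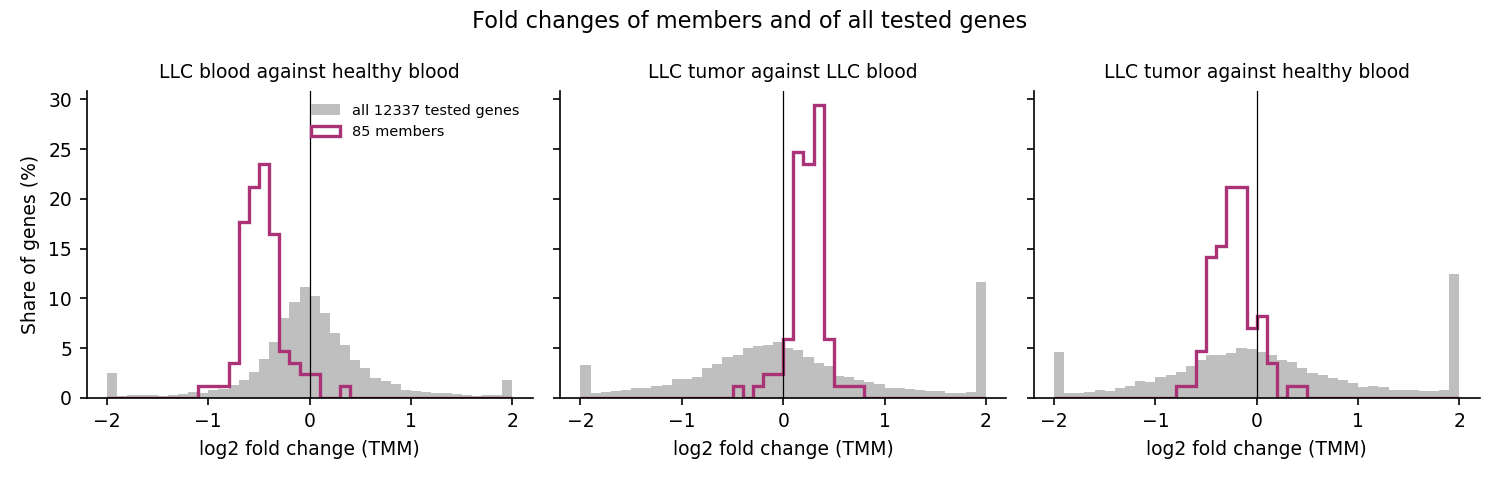
Distribution of log2 fold changes (horizontal axis, TMM scaling) of all 12337 tested genes (grey) and the 85 tested members (line), as a share of each set (vertical axis, %), in the 3 comparisons; values beyond -2 or 2 are counted in the end bins. The members form a narrow peak with a median of -0.49, 0.25 and -0.24 from left to right; the centre panel moves to a median of 0.046 when libraries are scaled by their totals only.

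Setting LLC tumor against LLC blood asks how monocytes inside the tumor differ from those still in the blood. With TMM scaling 38 of 85 members were higher, 1 was lower and 46 were not called, beside 29.6% higher and 31.7% lower among all tested genes (30.6% and 37.5% of those whose mean reached 100 CPM). The members' median log2 fold change was 0.25, beside -0.034 for all tested genes. This rise depended on how libraries were scaled. With library totals only, 10 members were higher and 4 lower, beside 23.2% and 40.6% of all tested genes. The members' median was then 0.046, beside -0.23 for all tested genes. DESeq2 called 61 higher and 1 lower, beside 32.7% and 28.8% of all tested genes. The distance between the member median and the median of all tested genes was 0.28 on the log2 scale under each of 5 scalings with all 9 libraries, while the members' share of all counts was nearly equal in both groups. The distance was 0.18 without LLC tumor 1 and 0.18 with no filter on low counts. In unscaled CPM, 19 members were higher in all 3 LLC tumor libraries than in all 3 LLC blood libraries and 9 were lower, beside 23.5% and 44.8% of all tested genes. Between 14 and 51 members were higher when 1 library was left out: 14 without LLC blood 2, 20 without LLC blood 3, 24 without LLC blood 1 and 51 without LLC tumor 2. Of all tested genes, 26.8%, 27.2%, 28.5% and 28.6% were higher in the same order. Without LLC tumor 1 the members' median was 0.18, with 41 higher and 3 lower, beside 34.3% and 32.8% of all tested genes.

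**Figure D4:**
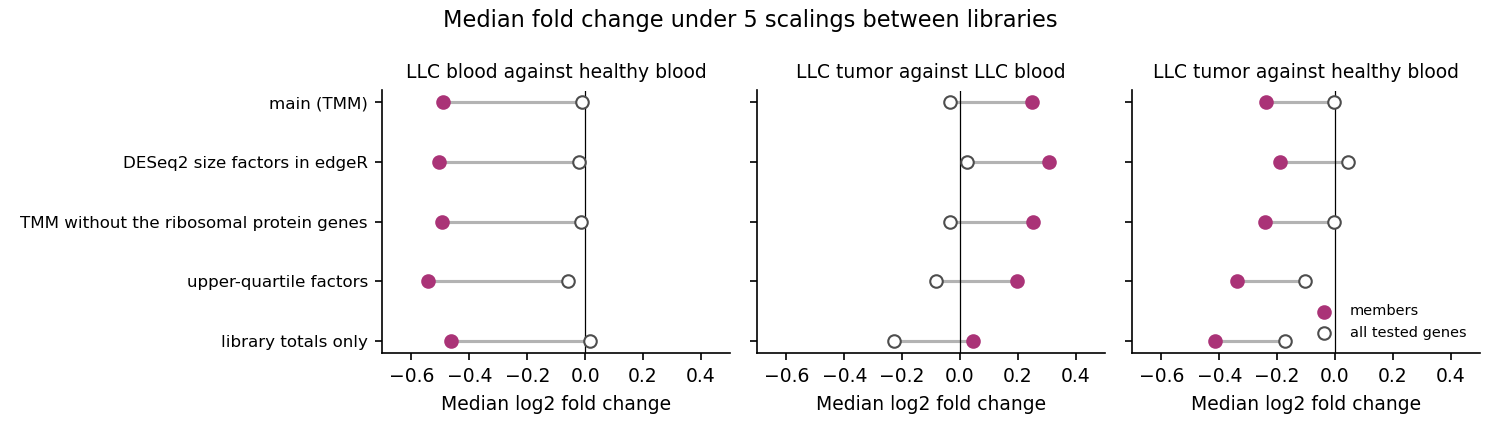
Median log2 fold change (horizontal axis) of the 85 tested members (filled) and of all 12337 tested genes (open) under 5 ways of scaling libraries (vertical axis), in the 3 comparisons. In LLC blood against healthy blood the members lie between -0.54 and -0.46; in LLC tumor against LLC blood they lie between 0.046 (library totals) and 0.31, and both medians shift together.

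Among the 16 named genes called in this comparison, 7 kept their call under all 19 alternatives: Rpl22l1, Rpl12, Rpl23, Rpl13, Rps2 and Rpl29 were higher and Rpl7l1 was lower in LLC tumor. Rpl12, at the base of the stalk, read 367, 369.9 and 366 CPM in LLC blood and 407, 549 and 526 CPM in LLC tumor (0.62, SE 0.077, adjusted p = 0.000102 in edgeR). Rpl22l1, the paralog of Rpl22, read 53.4, 49.5 and 49.0 CPM and 76.9, 69.5 and 68.3 CPM (0.71, SE 0.13, adjusted p = 0.00132). For both genes every LLC tumor library lay above every LLC blood library. Against healthy blood both were called lower in LLC blood (log2 fold change -0.32, SE 0.077, adjusted p = 0.0169 for Rpl12, and -0.59, SE 0.13, adjusted p = 0.0124 for Rpl22l1), and these calls were lost under 5 and 3 of 19 alternatives. Rpl23, which faces the small subunit and can bind MDM2, read 566, 551 and 568 CPM and 689.6, 734 and 708 CPM, again without overlap (0.54, SE 0.10, adjusted p = 0.00102 in edgeR).

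Rpl13, a large-subunit protein, read 798, 742 and 751 CPM in LLC blood and 836, 1006 and 985 CPM in LLC tumor (0.50, SE 0.082, adjusted p = 0.000565 in edgeR). Rps2 read 391, 428 and 408 CPM and 428, 523 and 535 CPM (0.47, SE 0.078, adjusted p = 0.000607), and Rpl29, a small basic protein of the large subunit, 271, 251 and 266 CPM and 301, 312 and 333 CPM (0.47, SE 0.087, adjusted p = 0.00119). In all 3 genes the groups were apart, for Rps2 by less than 1 CPM. Rpl7l1, a paralog of Rpl7, went the other way, from 84.4, 94.3 and 98.8 CPM to 54.8, 64.0 and 64.5 CPM (-0.40, SE 0.081, adjusted p = 0.00191 in edgeR).

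By role, 6 of 9 exit tunnel members, 2 of 5 members at the mRNA entry, 3 of 6 at the mRNA exit and 9 of 18 Diamond-Blackfan anaemia genes were called higher under TMM scaling. In the whole family 38 of 85 were, beside 29.6% of all tested genes. No role was tested against the rest of the family. Rplp1 (0.31, SE 0.082, adjusted p = 0.00864 in edgeR), Rps6 (0.33, SE 0.087, adjusted p = 0.0085) and Rpl13a (0.32, SE 0.10, adjusted p = 0.0227) were called, and all 3 calls were lost with library totals only. Rplp0 (0.18), Rplp2 (0.089), Rpl5 (0.25), Rpl11 (0.16), Rpsa (0.068), Rps3 (0.23) and Rpl10 (0.25) did not pass, the values being log2 fold changes; with library totals only, Rplp0, Rplp2, Rpl11 and Rpsa had the opposite sign. Scaled to the family, 6 members were higher and 6 lower in LLC tumor (of all tested genes 22% and 42%, 64% either way). Calls held under all 12 alternatives for Rpl22l1 (0.47, SE 0.087, adjusted p = 0.00113), Rpl12 (0.39, SE 0.10, adjusted p = 0.00808) and Rpl23 (0.30, SE 0.062, adjusted p = 0.00178), which were higher. They also held for Rpl7l1 (-0.64, SE 0.10, adjusted p = 0.000441), Rps27l (-0.41, SE 0.11, adjusted p = 0.00883) and Rps9 (-0.31, SE 0.070, adjusted p = 0.00326), which were lower. Rps9, near the mRNA entry, read 1294, 1222 and 1261 CPM in LLC blood and 1073, 1005 and 1039 CPM in LLC tumor. Its libraries did not overlap in unscaled CPM, where 44.8% of all tested genes were lower in this sense. With TMM scaling edgeR called neither Rps9 (-0.065, adjusted p = 0.657) nor Rps27l (-0.18, adjusted p = 0.099). The lower calls of Rpl36al (-0.28, SE 0.084, adjusted p = 0.0142) and Rpl32 (-0.18, SE 0.057, adjusted p = 0.0175) were lost without LLC blood 2 and without LLC blood 3, respectively. The higher calls of Rpl13 (0.27, SE 0.080, adjusted p = 0.0144) and Rpl29 (0.23, SE 0.066, adjusted p = 0.0127) were lost in 2 of 12 alternatives each: Rpl13 without LLC blood 3 or LLC tumor 2, and Rpl29 without LLC blood 2 or LLC tumor 3. Without LLC tumor 1, 20 members were called on this scale.

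Markers of other cells differed here as well. The 5 fibroblast markers (Col1a1, Col1a2, Col3a1, Dcn and Lum) summed to 407, 1.38 and 1.88 CPM in the LLC blood libraries and to 925, 3427 and 3878 CPM in LLC tumor. The 5 platelet markers summed to 3.35 to 6.64 CPM and 138 to 222 CPM, and of 3 tested 2 were called higher and 0 lower. The 4 epithelial markers summed to 1.87 to 4.02 CPM (Epcam at 0) and 10.6 to 43.7 CPM. Of the 3 epithelial markers tested, 2 were called higher and 1 lower. The 3 endothelial markers summed to 1.34 to 1.84 CPM and 9.48 to 13.7 CPM. The 6 erythroid markers summed to 168 to 919 CPM in LLC blood and 1.08 to 3.46 CPM in LLC tumor. The 5 B cell markers summed to 1.72 to 1.95 CPM in LLC tumor, with Cd79a and Ms4a1 among those at 0, and T and NK cell markers to 1.81 to 2.44 and 1.38 to 4.43 CPM. Neutrophil markers summed to 145 to 205 CPM in LLC tumor. Their part in the members' levels was not tested.

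Setting LLC tumor against healthy blood shares its libraries with both comparisons above, so its values stand beside theirs and are not independent. With TMM scaling 37 members were lower, 2 were higher and 46 were not called, beside 33% lower and 33.5% higher of all tested genes. Among genes whose mean reached 100 CPM, 37.3% were lower and 34.7% higher. With this scaling the share of members called lower was thus not far above the background, while few were higher. The median was -0.24, beside -0.0025 for all tested genes. With library totals only, 73 were lower and 1 higher, beside 40.1% lower and 27.4% higher of all tested genes. The median was then -0.41, beside -0.17 for all tested genes. In unscaled CPM, 76 of 85 members were lower in all 3 LLC tumor libraries, against 43.7% of all tested genes, and 0 were higher, against 26.9%. Without LLC tumor 1, 66 were lower, beside 36.8% of all tested genes, and the members' median was -0.36. Without LLC tumor 2, LLC tumor 3 or healthy blood 3, 22, 21 and 23 were lower. Of all tested genes, 30.3%, 29.6% and 29.3% were lower in the same order.

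Rps2 and Rpl12 were the 2 members called higher. Rps2 read 429, 391 and 389 CPM in healthy blood and 428, 523 and 535 CPM in LLC tumor, and its log2 fold change was 0.47 (SE 0.078, adjusted p = 0.000581) in edgeR. Rpl12 read 421, 462 and 464 CPM and 407, 549 and 526 CPM (0.30, SE 0.077, adjusted p = 0.00656), a call lost with library totals only. In unscaled CPM LLC tumor 2 and 3 lay above every healthy blood library in both genes, while LLC tumor 1 lay within the healthy range for Rps2 and below it for Rpl12.

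Rps27, Rps27rt and Rps27l were among the 5 members with the largest falls. Rps27 read 259, 288 and 276 CPM in healthy blood and 164, 124 and 149.7 CPM in LLC tumor (-0.72, SE 0.16, adjusted p = 0.00324 in edgeR). Rps27l read 61.7, 68.9 and 71.2 CPM in healthy blood and 37.0, 48.7 and 40.1 CPM in LLC tumor (-0.52, SE 0.087, adjusted p = 0.000597). Neither gene's libraries overlapped between the groups, and both calls held under all 19 alternatives. Rps27rt read 351, 272 and 290.3 CPM in LLC tumor (-0.58, SE 0.18, adjusted p = 0.0163), a call lost without healthy blood 3, LLC tumor 2 or LLC tumor 3. The sum of Rps27 and Rps27rt ranged from 395 to 515 CPM in LLC tumor, with a log2 fold change of -0.63 against healthy blood (SE 0.16, edgeR adjusted p = 0.00744).

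Scaled to the family, 15 members were higher and 16 lower in LLC tumor than in healthy blood (of all tested genes 42.4% and 21%, 63.3% either way), and 8 higher and 5 lower ones kept the call under all 12 alternatives. The largest were Rps2 (0.73, SE 0.10, adjusted p = 0.000212), Rpl12 (0.57, SE 0.10, adjusted p = 0.000957), Rpl22l1 (0.37, SE 0.087, adjusted p = 0.00418) and Rpl4 (0.36, SE 0.074, adjusted p = 0.00184) among the higher ones. Among the lower ones the largest was Rps27 (-0.48, SE 0.11, adjusted p = 0.00459). The 3 stalk proteins were all higher relative to the family: Rplp2 by 0.35, Rplp1 by 0.29 and Rplp0 by 0.28 on the log2 scale (edgeR adjusted p = 0.0268, 0.014 and 0.00261). The Rplp0 call held throughout, that of Rplp1 was lost without healthy blood 2, LLC tumor 2 or LLC tumor 3, and that of Rplp2 in 5 of 12 alternatives. The lower call of Rps24 (-0.25, SE 0.077, adjusted p = 0.0155) was lost without healthy blood 3 and without LLC tumor 3, and that of Rps27rt (-0.34, SE 0.11, adjusted p = 0.0202) in 4 of 12 alternatives. The count of 31 calls fell to 19 when only the 6 libraries compared were fitted, to 16 without healthy blood 2, to 17 without LLC tumor 2 and to 16 without LLC tumor 3.

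Some ribosomal proteins have a second gene, and the share of a pair's counts that came from the paralog needs no scaling between libraries. Of 9 listed pairs, 7 had enough counts. With 3 libraries against 3 an exact two-sided permutation test cannot go below p = 0.1, and over the 21 tests the smallest Benjamini-Hochberg adjusted value was 0.35, so none of these differences can pass the threshold. Rpl22l1 made up 16.4%, 17.2% and 17.4% of the Rpl22 pair in the healthy blood libraries. It made up 17.3%, 16.9% and 16.3% in those of LLC blood, and 25.3%, 21.5% and 21.4% in those of LLC tumor. All LLC tumor libraries lay above all blood libraries (exact permutation p = 0.1 against either group).

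Rps27l, a paralog of Rps27 known as a p53 target, made up 19.2%, 19.3% and 20.5% of its pair in healthy blood and 28.3%, 25.5% and 26.9% in LLC blood. Every LLC blood library was above every healthy one (exact permutation p = 0.1), while in LLC tumor the share ran from 18.4% to 28.2% and overlapped LLC blood. In counts, Rps27l fell by 0.33 in LLC blood (SE 0.086, edgeR adjusted p = 0.0211), less than Rps27, a call lost with library totals only and without each of 4 blood libraries (healthy blood 3 and LLC blood 1, 2 and 3). Rpl7l1 made up 7.41%, 7.48% and 6.35% of the Rpl7 pair in healthy blood. Its share was 8.25%, 9.86% and 10.0% in the LLC blood libraries, and 5.31%, 6.40% and 6.42% in those of LLC tumor. Its LLC blood share lay above both other groups (exact permutation p = 0.1 for each).

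The Rpl36al share was 55.2% ± 1.14 in healthy blood, 56.1% ± 1.08 in LLC blood and 48.6% ± 6.74 in LLC tumor (SD, n = 3 each), where 1 library, at 56.0%, lay within the blood range. Rps4l, which RefSeq lists as a transcribed pseudogene although its symbol carries no -ps, at 5.18 to 11.4 CPM, made up 0.495% ± 0.0341, 0.856% ± 0.191 and 0.602% ± 0.121 of the Rps4x pair, and its higher call in LLC blood relative to the family was lost without LLC blood 1. Rpl3l, known from muscle, had 8 to 54 counts per library and held 0.216%, 0.238% and 0.177% of the Rpl3 pair as group means. The Rps27rt entry held 65.5% ± 1.23, 63.9% ± 5.13 and 67.6% ± 1.44 of the summed counts with Rps27 (SD, n = 3 each), a split that shared reads can set.

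**Figure D5:**
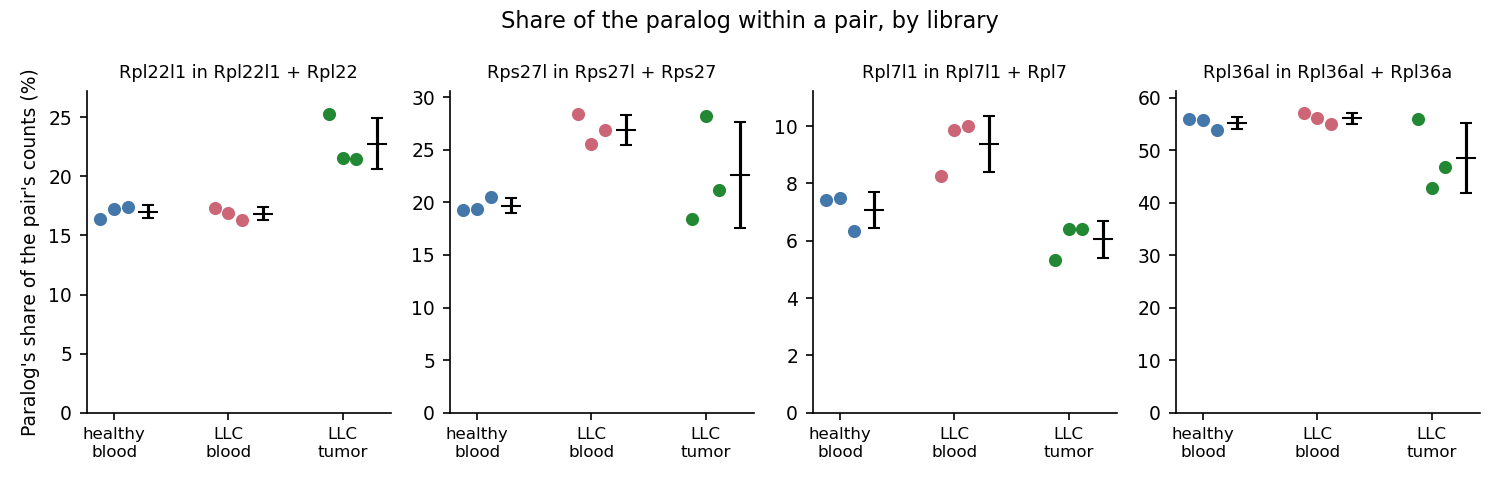
Share of a pair's counts on the paralog (vertical axis, %) for 4 pairs, by group. Points are libraries and bars are the mean ± SD of 3; Rpl22l1 lies at 21.4% to 25.3% in LLC tumor and 16.3% to 17.4% in blood, and Rpl7l1 is highest in LLC blood (8.25% to 10.0%).

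Other genes of the translation apparatus were counted from lists, with TMM scaling only. Of all tested genes 14% were higher and 9.61% lower in LLC blood against healthy blood. In LLC tumor the shares were 29.6% and 31.7% against LLC blood, and 33.5% and 33% against healthy blood. Of 15 elongation factors and other TOP mRNAs, 6 were lower and 0 higher in LLC blood, among them Eif3e (-0.51), Npm1 (-0.40) and Eef1b2 (-0.37), given as log2 fold changes. Eef1a1, which brings aminoacyl-tRNA to the ribosome, read 7433, 7738 and 8081 CPM in healthy blood and 6998, 7049 and 7112 CPM in LLC blood (-0.16, SE 0.13, adjusted p = 0.394 in edgeR). Eef2, which moves the ribosome along the mRNA, was at a log2 fold change of 0.031 (SE 0.10, adjusted p = 0.854). In LLC tumor against LLC blood 6 of the 15 were higher and 1 lower, with Tpt1 (0.91), Eef1g (0.71) and Npm1 (0.67) leading. Eef1a1 was also called in that comparison (0.46, SE 0.13, adjusted p = 0.0107), at 8285, 8592 and 8426 CPM in LLC tumor. Against healthy blood, LLC tumor had 2 higher and 3 lower.

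The 77 mitochondrial ribosomal proteins, which build the ribosome inside mitochondria, gave different counts. In LLC blood 5 were lower and 1 higher, with a median of -0.083, beside 74 of 85 cytosolic members lower. Of all tested genes 9.61% were lower and 14% higher. In LLC tumor against LLC blood 37 were lower and 6 higher, with a median of -0.25, beside 31.7% lower and 29.6% higher of all tested genes. Mrpl37 (-0.71), Mrpl28 (-0.69) and Mrps25 (-0.66) had the largest changes. Against healthy blood, 42 were lower and 8 higher in LLC tumor, with a median of -0.38, and Mrps25 read 67.6, 72.2 and 72.6 CPM in healthy blood and 24.4, 28.7 and 29.0 CPM in LLC tumor (-1.20, SE 0.077, adjusted p = 1.42e-06 in edgeR). No test of the difference between the cytosolic and mitochondrial sets was made.

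Ribosome assembly factors (40 tested) had 6 higher and 5 lower in LLC blood and a median of 0.0013, beside 14% higher and 9.61% lower of all tested genes. In LLC tumor against LLC blood 12 were higher and 5 lower, beside 29.6% and 31.7% of all tested genes. Ncl, nucleolin, read 203, 223 and 229 CPM in LLC blood and 299.8, 413 and 364 CPM in LLC tumor (0.91, SE 0.079, adjusted p = 1.08e-05 in edgeR), and Gnl3, nucleostemin, 8.89, 9.27 and 9.32 CPM and 22.4, 40.6 and 33.0 CPM (1.98, SE 0.14, adjusted p = 2.5e-06). Fbl, the methyltransferase fibrillarin, was lower in LLC blood (-0.27, SE 0.076, adjusted p = 0.0311) and was not called in LLC tumor against LLC blood (-0.16). Initiation factors (29 tested) had 4 higher and 2 lower in LLC blood, beside 14% and 9.61% of all tested genes. In LLC tumor against LLC blood they had 14 higher and 3 lower, beside 29.6% and 31.7%, led by Eif1 (1.20), Eif4e (1.18) and Eif4a1 (0.91). RNA polymerase I genes (15 tested) had 1 higher, Polr1a (0.64), and 1 lower, Ubtf (-0.20), in LLC blood. They had 1 higher and 5 lower in LLC tumor against LLC blood. These counts stand beside the same shares of all tested genes.

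Of 17 regulators of TOP mRNAs and of ribosomal protein genes, 4 were higher and 2 lower in LLC blood. Of all tested genes 14% were higher and 9.61% lower. Larp1, the TOP-binding protein, read 192, 205 and 189 CPM in healthy blood, 227, 249 and 244 CPM in LLC blood and 122, 173 and 166 CPM in LLC tumor. Its libraries did not overlap between any pair of groups. It rose in LLC blood (0.27, SE 0.076, adjusted p = 0.0309 in edgeR) and was lower in LLC tumor than in LLC blood (-0.46, SE 0.077, adjusted p = 0.000624). Tsc1 (0.80), Mtor (0.70) and Eif4ebp2 (0.62), parts of the mTOR pathway, were also higher in LLC blood. Myc, a transcription factor that drives ribosome production, read 3.64, 5.84 and 4.78 CPM in healthy blood, 4.40, 1.87 and 1.59 CPM in LLC blood and 41.9, 78.3 and 72.8 CPM in LLC tumor, with a log2 fold change of 4.88 (SE 0.35, adjusted p = 3.09e-06) between LLC tumor and LLC blood. The Myc level in LLC tumor was above that of every blood library. In LLC tumor against LLC blood 3 of the 17 regulators were higher and 5 lower, beside 29.6% and 31.7% of all tested genes.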

How the data were processed

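RNA-seq of 9 libraries of sorted monocytes was analysed, 3 per group, with groups taken from the sample titles. Per the labels, RNA was isolated with TRIzol and made into libraries with the TruSeq RNA kit for a HiScanSQ sequencer. The authors deposited expected counts (estimated read counts per gene symbol, not normalized) and a table of CPM values scaled by the authors, which was used only to look for members. The submitters' processing notes name Trim Galore 0.6.7, cutadapt 3.4, STAR 2.6.1d, Salmon 1.9.0 and edgeR, with no role. Column names carry the letters BM, read as blood monocyte because the titles name blood.

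Counts were rounded and fitted with edgeR 4.0.16 (R 4.3.3): 1 quasi-likelihood fit of all 9 libraries, group as the only term, TMM, filterByExpr, p-values adjusted by Benjamini-Hochberg over 12337 genes, threshold 0.05. Every adjusted p is from this model, or from the same model with TMM factors from the members where the text says scaled to the family. CPM in the text is unscaled. Alternatives were DESeq2 1.42.0, limma 3.58.1 (voom with quality weights), other scalings and filters, a replicate block, only the 6 libraries compared, each library left out, a threshold of 0.01, and, chosen after seeing the data, summed counts of near-identical copies and shares without Rn45s. The fit was tested on simulated data. Replicates differed by more than sampling noise (chi-square per degree of freedom 4.67 to 47.6). Equal replicate numbers were not treated as pairs in the main fit. Same-number correlations were 0.30, 0.16 and 0.064 between healthy blood and LLC blood, and -0.034, 0.15 and -0.12 between LLC blood and LLC tumor. The members and lists were chosen with earlier results of these data known, so no set test was made. Named were members of set roles and the paralogs, and per comparison and scaling the 5 called members with the largest rise and the 5 with the largest fall among those whose mean reached 20 CPM. From other lists at most 3 called genes were named by size, besides genes set for their role. Some genes that this rule names are not reported here. Promoter sequences are from RefSeq. No gene lengths were used, so levels are not compared between genes.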

Additional observations from a re-analysis of the deposited data

How the results depend on the processing

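Members called lower in LLC blood (74) numbered 47 at an adjusted p under 0.01 and 48 to 80 with 1 library left out. For LLC tumor against LLC blood (39 called, both directions), the count was 14 with library totals only, 20 with no filter, 62 with DESeq2, 18 at an adjusted p under 0.01 and 15 to 52 with 1 library left out. Its median was 0.046 with library totals only. For LLC tumor against healthy blood (39 called), it was 65 with upper-quartile factors, 74 with library totals only, 66 with limma-voom, 18 at an adjusted p under 0.01 and 23 to 68 with 1 library left out. Its median was -0.34 with upper-quartile factors, -0.41 with library totals only and -0.17 to -0.36 with 1 library left out. The replicate block gave 70, 33 and 36 calls in the 3 comparisons. Scaled to the family, calls numbered 11 to 29 with 1 library left out in LLC blood against healthy blood, 8 to 20 in LLC tumor against LLC blood and 16 to 39 in LLC tumor against healthy blood, where the fit of only the 6 libraries compared gave 19. Without the 100 most abundant other genes the members' share was 7.53% (healthy blood), 5.48% (LLC blood) and 5.77% (LLC tumor). Rplp0 in LLC tumor against healthy blood was 0.028 on the log2 scale and -0.15 with library totals only.

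Some paralog shares whose groups overlapped changed sign with 1 library left out. In LLC blood against healthy blood the difference, in percentage points, was -0.18 for Rpl22l1, with a range of -0.49 to 0.11 when 1 library was left out (0.030 without healthy blood 3 and 0.11 without LLC blood 3). For Rpl3l it was 0.022, with a range of -0.020 (without healthy blood 1) to 0.062. For Rps27rt it was -1.55, with a range of -4.10 to 1.03 (without LLC blood 2). In LLC tumor against healthy blood it was -0.039 for Rpl3l, with a range of -0.080 to 0.010 (0.000917 without healthy blood 3 and 0.010 without LLC tumor 2). Of the named genes called, 15 of 31, 7 of 16 and 12 of 17 kept the call under all 19 alternatives in the 3 comparisons. The cause of these differences was not tested. With 3 libraries per group and 10457492 to 20706412 counts, the median SE of a member's log2 fold change was 0.10 in each comparison. Changes of more than this size could still miss the threshold, as for Rpl36al in LLC blood against healthy blood (-0.28, adjusted p = 0.184).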

Other observations

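In unscaled CPM most members varied little between libraries of a group, though this was not set beside all tested genes. TMM scaling sets LLC tumor 1 apart from LLC tumor 2 and 3 (factors of 0.798, 1.00 and 0.968). Unscaled CPM leaves that spread out. The coefficient of variation of unscaled CPM over the 3 libraries had a median of 5.41% in healthy blood, 3.32% in LLC blood and 4.81% in LLC tumor over the 85 tested members. The lowest was 0.140% for Rps19 in healthy blood, and the highest were 40.0% and 47.6% for Rpl3l, a member with few counts, in healthy blood and LLC tumor. By group mean of unscaled CPM, 80 of 85 members were highest in healthy blood, 3 in LLC blood and 2 in LLC tumor, while 51 were lowest in LLC blood, 33 in LLC tumor and 1 in healthy blood.

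Other letters in the promoters of the members were counted on both strands of the 300 bases from 250 before to 50 after each start. The ETS factor core CCGGAAG was in 34.6% of the 78 member starts and 8.86% of all 32851 starts, the YY1 core ATGGCGGC in 6.41% and 2.24%, and the TATA box letters TATAAA in 8.97% and 13.6%; none of the 3 motifs contains another. Among tested members with a start entry, the 30 with a pyrimidine run within 5 bases of a start had a median log2 fold change of -0.51 in LLC blood against healthy blood, and the 34 without had -0.48. The 25 members with CCGGAAG and the 39 without it had medians of -0.49 and -0.48.

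The 7 ribosomal protein pseudogene entries left out of the members, such as Rpl31-ps12, each held at most 0.323% of the family's counts. Beside its own member such an entry can be large. Rpl31-ps12 held 20566 counts over the 9 libraries together, where Rpl31 held 3359 to 7476 in each. All 87 members are in RefSeq, on 19 chromosomes.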
